A study of Homo sapiens with 12 samples.

Results

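The genes described here were 10 factors and membrane proteins of the urothelium, the lining of the bladder, chosen by gene name among the 60504 genes listed in the deposited tables. They were the transcription factors PPARG, GATA3, FOXA1, KLF5, ELF3, TP63 and GRHL2 and the uroplakins UPK1B, UPK2 and UPK3A. RNA sequencing covered 12 libraries of T24, a bladder cancer line of human origin that is widely kept in culture, and every group below was T24. The knockout comparison held 2 libraries labelled knockout U11 and 2 untreated controls. The overexpression comparison held 6 libraries labelled overexpression U11 and 2 untreated controls. U11 is a small nuclear RNA of the minor spliceosome. According to the study's methods, the knockout lines were made with Cas9 and a pair of guides on the U11 gene and the overexpression lines with a stably transfected U11 plasmid, and both kinds were grown from single cells. Titles of the overexpression libraries add a line label, 79, 86 or 87, each on 2 libraries, and no source used here explains these 3 labels. The titles also hold a code whose meaning is not given, and its leading part was taken here as the library batch. This gave 1 library batch for the whole knockout comparison and 2 for the overexpression comparison, each of these with 1 control and 1 library of every line label. Nothing says that the libraries of a group came from separate cultures, so P-values measure only the spread between libraries, which may be technical.

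In the urothelium, PPARG, a nuclear receptor switched on by fatty acid ligands, works with GATA3, FOXA1, KLF5, ELF3 and GRHL2 to turn on the genes of the luminal layers. The end product of that programme is a plaque of uroplakins on the outer face of the umbrella cells, in which UPK1A or UPK1B pairs with UPK2 or a UPK3 protein. TP63, in contrast, marks the basal cells that renew the tissue. Bladder cancers are often sorted into luminal and basal kinds by these same genes.

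T24 expressed 4 of the 10 genes and left the other 6 near 0. PPARG, KLF5, FOXA1 and GATA3 stood at 1 TPM or more in all 12 libraries, whereas ELF3, TP63, GRHL2, UPK1B, UPK2 and UPK3A stayed under 1 TPM in all 12. TPM is the share of a gene among the transcripts of its library, corrected for gene length and scaled to one fixed total, so levels of different genes can be compared on it.

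PPARG was the highest of these genes in every control. Its gene lies on chr3:12287368-12434356 (hg38, plus strand, ENSG00000132170). The level was 28.4 and 28.2 TPM in the controls of the knockout comparison, and 45.4 and 43.99 TPM in controls P3 and 4 of the overexpression comparison. FOXA1, a pioneer factor that opens chromatin for nuclear receptors (chr14:37589984-37596059, minus strand, ENSG00000129514), had 18.33 and 18.27 TPM in the first control pair, that of the knockout comparison. It had 34.4 and 35.9 TPM in the second pair, that of the overexpression comparison. TTC6 shares 213 bases with the FOXA1 record and lay at 1.02 to 3.53 TPM. KLF5, a zinc finger factor of proliferating epithelium (chr13:73054976-73077542, plus strand, ENSG00000102554), had 15.98 and 17.2 TPM in the first pair and 36.2 and 35.4 TPM in the second. KLF5 and FOXA1 therefore did not overlap in the first control pair and overlapped in the second. GATA3, a zinc finger factor used as a urothelial marker in pathology (chr10:8053604-8075198, plus strand, ENSG00000107485), was the lowest of the 4, at 2.38 and 2.93 TPM in the first control pair and 17.4 and 13.6 TPM in the second.

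**Figure D1:**
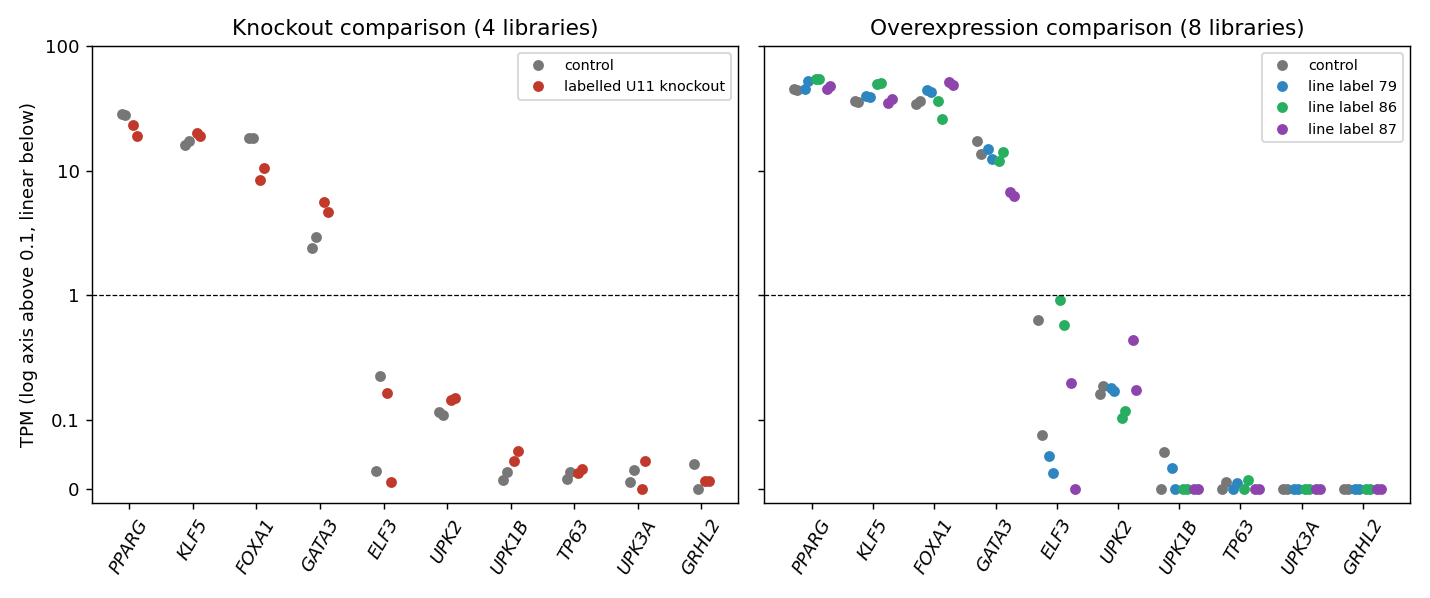
TPM of the 10 urothelial genes, one point per library, on an axis that is logarithmic above 0.1 TPM and linear below it. The left panel holds the 4 libraries of the knockout comparison and the right panel the 8 of the overexpression comparison, and the dashed line is 1 TPM. PPARG, KLF5, FOXA1 and GATA3 lie above the line in every library, and the other 6 genes lie below it in every library.

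The remaining factors were barely detected. ELF3, an epithelial ETS factor that promotes urothelial differentiation, varied most. Controls of the knockout comparison had 0.0268 and 0.224 TPM and controls P3 and 4 had 0.635 and 0.0786 TPM. Its highest values were 0.920 and 0.576 TPM, both under line label 86, and it was listed at 0 in 1 library of line label 87. Replicates of a control pair thus lay far apart, and the coverage of ELF3 never exceeded 1.14 aligned bases per position. A gene on the opposite strand, RP11-465N4.4, shares 2409 bases with ELF3, and strandedness of the libraries is not stated, so reads of the pair cannot be told apart.

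TP63 did not exceed 0.0290 TPM in any library and was listed at 0 in 5 of them. GRHL2, a grainyhead factor that keeps epithelial junction genes on, reached at most 0.0363 TPM and was listed at 0 in 9 libraries, all 8 of the overexpression comparison among them.

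Uroplakin RNA was close to absent at this depth. UPK1B, a tetraspanin that carries UPK3A to the surface, reached at most 0.0555 TPM, in a library labelled knockout, and was listed at 0 in 6 libraries. UPK3A, the transmembrane partner of UPK1B, reached at most 0.0407 TPM, was listed at 0 in 9 libraries, and had no signal in any of the 8 libraries of the overexpression comparison. UPK2, which pairs with UPK1A in the plaque, was the only uroplakin above 0 in all 12 libraries, from 0.103 to 0.437 TPM with a median of 0.157 TPM. Its gene record shares 445 bases with BCL9L on the opposite strand, which was at 11.5 to 50.8 TPM, and without strand the reads of the overlap cannot be assigned. The summed TPM of the 3 uroplakins was 0.103 to 0.437 across the 12 libraries. None of the 6 genes under 1 TPM was tested between groups in the fits below. In an alternative without a minimum TPM, none of them was called against controls or among line labels.

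The control pairs of both comparisons were not alike in composition. The 10 highest genes took 45.5 to 49.6% of all TPM in the 4 libraries of the knockout comparison and 7.06 to 7.56% in the 8 others. Protein-coding genes other than histones took 40.8 to 44.4% and 93.9 to 94.5%, respectively. TPM was 5.85 times higher for GATA3, 2.16 times for KLF5, 1.92 times for FOXA1 and 1.58 times for PPARG in the second control pair. With these protein-coding genes rescaled to one total per library, the ratios were 2.57, 0.948, 0.843 and 0.693, so GATA3 remained higher in the second pair and the other 3 factors did not. Library composition, library batch and culture cannot be told apart between the pairs, so each comparison below keeps to its own controls. U11 itself had 31.6 and 37.4 TPM under the knockout label and 21.4 and 23.8 TPM in the matching controls, the reverse of the label. By quantitative PCR, the study reported U11 significantly lower in the knockout line and significantly higher in the overexpression line. The labels give polyA RNA, and how well these libraries measure a small nuclear RNA was not tested. In the overexpression comparison, U11 had 0.0335 and 0.623 TPM in the controls, 0.183 and 0.412 TPM under line label 79, 3.98 and 3.72 TPM under 86, and 61.9 and 53.6 TPM under 87.

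Relatives of these genes were expressed in part. Of 21 family members, 11 had 1 TPM or more in every control. The grainyhead family was represented by GRHL1, at 0.882 to 2.07 TPM over the 4 controls, while GRHL3 stayed at 0.131 TPM or less. The p53 family had TP73, the close relative of TP63, at 5.54 to 15.0 TPM. Among ETS factors, ELF1, ELF2 and ELF4 lay between 9.39 and 34.5 TPM, and the epithelial members EHF and ELF5 were at 0.0877 TPM or less. UPK1A reached 0.118 TPM and UPK3B 0.636 TPM in the controls. The uroplakin family as a whole was therefore under 1 TPM in the controls.

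The keratins and junction genes around these factors gave a mixed picture of T24. Of 16 luminal markers, 7 had 1 TPM or more in every control. These were the simple keratins KRT7 (1156 to 5438 TPM), KRT8, KRT18 and KRT19, the receptors ERBB2 and ERBB3, and the secretory factor XBP1. KRT20, SNX31 and VGLL1, which mark the umbrella cell end of the luminal programme, were at 0.0504 TPM or less. Of 12 basal markers, CD44, EGFR, KRT17 and DSC3 passed 1 TPM, and the basal keratins KRT5 and KRT14 were at 0.0758 TPM or less. Of 14 epithelial junction genes, ESRP2, CGN and MARVELD2 passed 1 TPM in every control, and the adherens junction cadherin CDH1 was at 0.155 TPM or less. The mesenchymal intermediate filament VIM was at 1259 to 2470 TPM and the neural cadherin CDH2 at 98.3 to 153 TPM. T24 thus carried the simple keratins of a urothelial line, while CDH1 and the uroplakins were near 0.

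FOXA1, GATA3 and KLF5 had a promoter window rich in CG dinucleotides, and PPARG had one that was less rich. For GATA3, KLF5 and PPARG the content depended on which start was taken. Windows were found for 7 of the 10 genes, and GRHL2, UPK2 and UPK3A had none. In the 250 bases before each RefSeq start (GRCh38.p14), the CpG ratio was computed, which is the number of CG dinucleotides over the number that the C and G content alone would give. The highest ratio of any start was 0.977 for FOXA1, 0.869 for GATA3, 0.865 for KLF5 and 0.643 for PPARG, the 4 expressed genes. It was 0.502 for TP63, 0.298 for UPK1B and 0.190 for ELF3, the 3 near 0. A ratio of 0.6, chosen after these values were seen, was reached by 47.5% of 35116 RefSeq windows. Of 9992 protein-coding genes with a window at or above 0.6, 77.2% had 1 TPM or more in every control, and of 4398 without such a window, 19.8% did. These values are a description with no test, and a gene with more starts has more chances of a high ratio. CG dinucleotides are palindromic, so both strands give the same count. GATA3 has 6 RefSeq starts, with ratios from 0.246 to 0.869, and KLF5 has 2, with 0.294 and 0.865. PPARG has 6 RefSeq starts, with ratios from 0 to 0.643. The start of its canonical GENCODE transcript had 0.526, under 0.6 and near the 0.502 of TP63, and which of them T24 used cannot be read from gene totals.

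1 window per gene is printed below with CG dinucleotides in capitals. They show how densely these fill the printed windows of KLF5, GATA3 and FOXA1 and how thinly those of PPARG, TP63 and UPK1B. Each reads 5′ to 3′ on the strand of the gene in hg38. KLF5 (chr13:73058755-73059004, plus strand, 27 CG) and GATA3 (chr10:8054438-8054687, plus strand, 26 CG) are whole windows before the start of the canonical GENCODE transcript. Another start of GATA3 gave its highest ratio. FOXA1 (chr14:37595349-37595499, minus strand, 18 CG in 151 bases) was shortened where an annotated exon begins. PPARG (chr3:12287118-12287367, plus strand, 8 CG) is the window before its most upstream start, the one of its 6 that reached 0.6, and not the canonical one. TP63 (chr3:189631139-189631388, plus strand, 6 CG) and UPK1B (chr3:119173348-119173516, plus strand, 5 CG in 169 bases, shortened likewise) are 2 of the genes near 0.
KLF5: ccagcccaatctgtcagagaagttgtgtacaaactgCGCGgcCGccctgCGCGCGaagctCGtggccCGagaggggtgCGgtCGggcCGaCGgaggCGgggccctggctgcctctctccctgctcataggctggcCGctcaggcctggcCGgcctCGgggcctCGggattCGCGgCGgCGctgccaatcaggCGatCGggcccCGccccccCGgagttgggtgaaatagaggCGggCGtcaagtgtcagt
GATA3: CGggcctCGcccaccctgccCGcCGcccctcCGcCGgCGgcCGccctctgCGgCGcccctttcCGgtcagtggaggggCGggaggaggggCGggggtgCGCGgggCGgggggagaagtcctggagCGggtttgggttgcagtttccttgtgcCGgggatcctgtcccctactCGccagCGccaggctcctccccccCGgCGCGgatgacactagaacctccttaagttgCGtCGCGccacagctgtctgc
FOXA1: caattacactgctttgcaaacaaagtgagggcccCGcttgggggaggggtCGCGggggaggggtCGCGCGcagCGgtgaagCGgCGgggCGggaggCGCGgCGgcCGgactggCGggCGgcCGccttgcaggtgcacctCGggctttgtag
PPARG: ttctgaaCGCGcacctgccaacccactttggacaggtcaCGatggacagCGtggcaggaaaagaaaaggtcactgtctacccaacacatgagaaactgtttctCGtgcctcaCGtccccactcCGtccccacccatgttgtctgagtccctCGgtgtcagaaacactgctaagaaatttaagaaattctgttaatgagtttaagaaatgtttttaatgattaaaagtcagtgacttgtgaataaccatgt
TP63: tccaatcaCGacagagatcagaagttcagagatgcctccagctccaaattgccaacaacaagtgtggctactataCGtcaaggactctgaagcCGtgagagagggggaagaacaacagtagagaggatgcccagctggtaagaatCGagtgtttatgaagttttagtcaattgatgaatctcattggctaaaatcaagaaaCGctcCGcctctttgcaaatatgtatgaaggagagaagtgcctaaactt
UPK1B: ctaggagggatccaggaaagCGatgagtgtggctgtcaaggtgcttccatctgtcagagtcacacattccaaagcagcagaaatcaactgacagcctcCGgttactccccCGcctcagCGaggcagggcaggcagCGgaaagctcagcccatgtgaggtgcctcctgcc

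**Figure D2:**
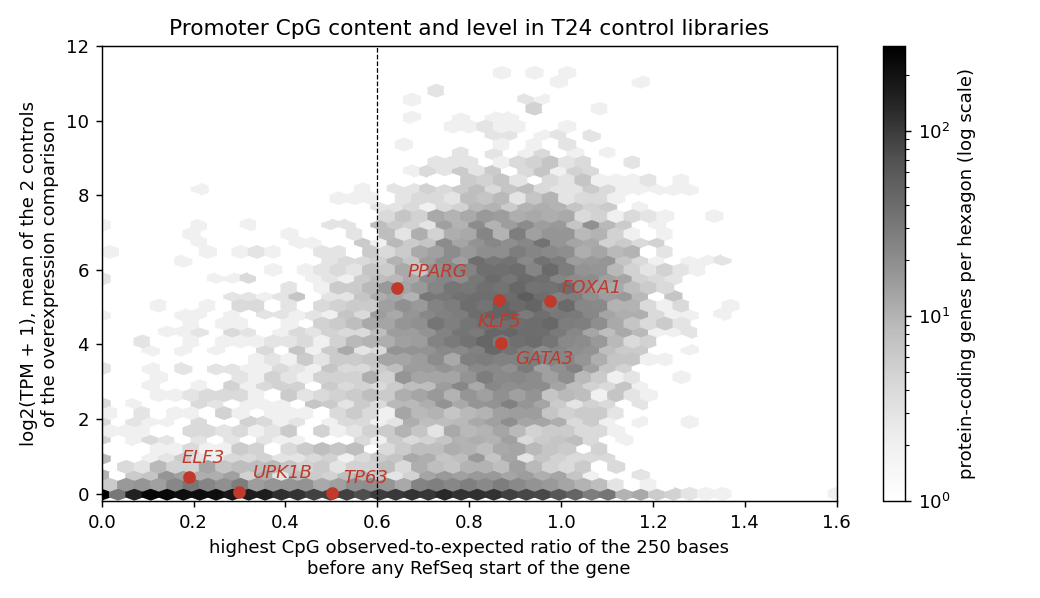
Highest CpG ratio of the 250 bases before any RefSeq start (x axis, no unit) against log2(TPM + 1), the mean of the 2 controls of the overexpression comparison (y axis). Grey hexagons count protein-coding genes on a log scale, red points are the 7 urothelial genes with a window, and the dashed line is 0.6. PPARG, KLF5, GATA3 and FOXA1 lie right of the line among the expressed genes, and ELF3, UPK1B and TP63 lie left of it near 0. PPARG does so by its most upstream start alone, and GATA3 and KLF5 also have starts under 0.6.

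The first question was whether the urothelial factors differed between the libraries labelled knockout U11 and their controls. FOXA1 was down-regulated and GATA3 up-regulated, while PPARG and KLF5 did not pass the thresholds. Genes with 1 TPM or more in at least 2 of the libraries compared were tested by limma on log2(TPM + 1). A gene was called where the fold change reached 1.5 in either direction and the unadjusted P lay below 0.05, the thresholds of the study. Of 14356 genes tested, 11.8% were called, 8.61% higher and 3.15% lower, and 2 of the 4 urothelial factors tested were among them, 1 in each direction.

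FOXA1 went from 18.33 and 18.27 TPM in the controls to 8.41 and 10.5 TPM under the knockout label. Both values of the second group lay below the controls. The log2 fold change was -0.89 (SE 0.14), with an unadjusted P of 0.00151 and an adjusted P of 0.0342 (limma, Benjamini-Hochberg over all genes tested). With an adjusted P below 0.05 required as well, 6.85% of genes were called and FOXA1 alone of the factors. FOXA1 dropped from rank 4712 and 5020 among the genes of each control to rank 8518 and 7310.

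GATA3 moved the other way. Control libraries had 2.38 and 2.93 TPM, and the knockout-labelled ones 5.61 and 4.67 TPM. The groups did not overlap. Its log2 fold change was 0.75 (SE 0.15), with an unadjusted P of 0.0049 and an adjusted P of 0.0553 (limma), so it passed the thresholds of the study and missed 0.05 after adjustment. Within each library, FOXA1 exceeded GATA3 by 7.70 and 6.24 times in the controls and by 1.499 and 2.25 times under the knockout label.

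PPARG had 28.4 and 28.2 TPM in the controls, compared with 23.1 and 18.9 TPM under the knockout label. Its log2 fold change of -0.42 (SE 0.13, 95% interval -0.76 to -0.09) had an adjusted P of 0.115 (limma) and was too small for the fold change threshold. KLF5 had 15.98 and 17.2 TPM against 20.1 and 18.8 TPM, a log2 fold change of 0.22 (95% interval -0.06 to 0.50) with an adjusted P of 0.247 (limma). The groups did not overlap for any of the 4 factors, which was also true of 60.2% of all genes tested, so separation alone does not mark these factors.

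The scaling of the libraries mattered for this comparison as a whole. Over all genes tested, the median was 0.11 on the log2 scale and became -0.02 with median ratio scaling, and the share of called genes that were higher went from 73.2% to 49.7%. Under that scaling FOXA1 was at -1.03 and GATA3 at 0.63, and both remained called. CDH5, an endothelial cadherin and the only marker of 11 for other cell types at 1 TPM or more in the controls, had 4.75 and 4.85 TPM in the controls and 0.0293 and 0.0316 TPM under the knockout label (log2 fold change -2.49). The other endothelial markers PECAM1 and VWF were under 0.1 TPM in these 4 libraries, and the 10 markers without CDH5 summed to 0.814 to 1.12 TPM. The part of these differences in the results above was not tested.

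**Figure D3:**
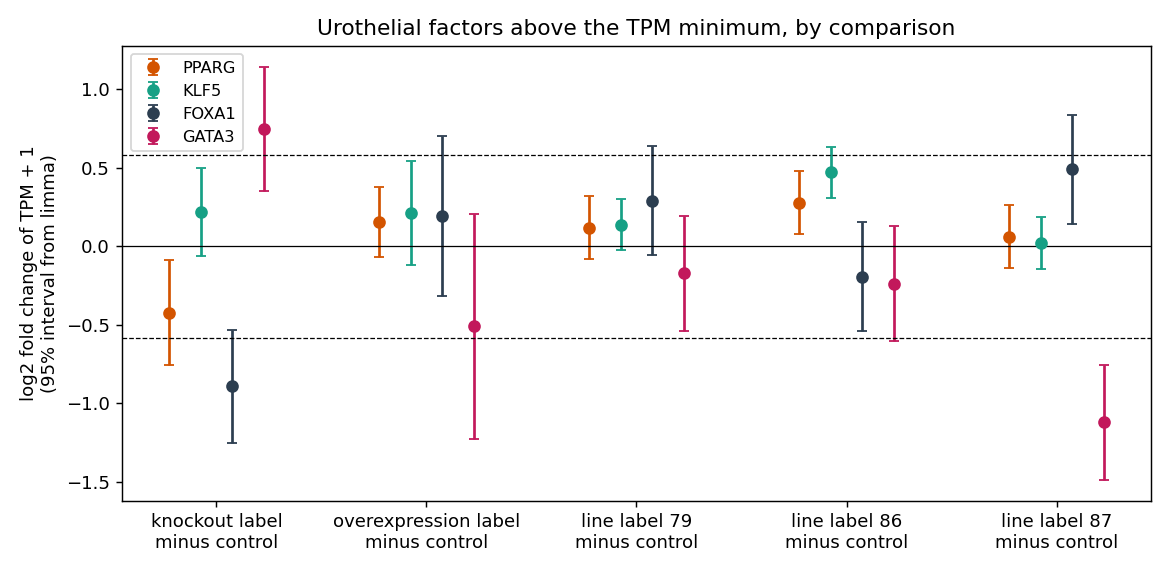
Log2 fold change of TPM + 1 (y axis) for PPARG, KLF5, FOXA1 and GATA3 in each comparison against its own controls (x axis), with 95% intervals from limma. Dashed lines mark a fold change of 1.5 in either direction. FOXA1 lies below the lower line and GATA3 above the upper line for the knockout label, and GATA3 lies below the lower line for line label 87.

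Of the genes that act with these factors, some were called between the libraries labelled knockout and their controls, where 11.8% of all genes were called. Of 11 dimer partners and targets of PPAR receptors, 8 were tested and 3 were called. FABP4, the fatty acid chaperone that is a classic PPARG target, was down-regulated from 10.6 to 13.7 TPM in the controls to 1.26 to 1.51 TPM (log2 fold change -2.45, adjusted P 0.00745 by limma). ACSL5, an acyl-CoA synthetase, was lower at -1.33 on the log2 scale. ANGPTL4, a secreted inhibitor of lipoprotein lipase, was higher at 1.64 (adjusted P 0.00945 by limma). ANGPTL4 was under 1 TPM in the controls and entered the test through its higher group, as did the p63 target ITGB4, and ACSL5 and CDH5 entered through the controls. RXRA, the dimer partner of PPARG, was at -0.40 on the log2 scale and did not pass the thresholds. Of the 3 called genes, FABP4 was thus the one at 1 TPM or more in both groups.

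Among the family members, 2 of 11 tested were called, both higher, as 8.61% of all genes were. KLF4 rose from 2.33 to 2.60 TPM in the controls to 8.81 to 10.8 TPM (1.64, adjusted P 0.0141 by limma), and KLF2 was higher at 0.92. KLF6, the third relative of KLF5 on the list, was at -0.34 (95% interval -1.40 to 0.72). Relatives under 1 TPM in these libraries were not tested and went both ways. FOXA2 had 0.906 and 0.938 TPM in the controls and 0.0680 and 0.120 TPM under the knockout label. GATA4 had 0.0692 and 0.224 TPM in the controls and 0.438 and 0.498 TPM under that label.

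With 11.8% of all genes called in either direction, luminal markers were called in 2 of 7 tested genes, with KRT19 lower at -0.74 and ERBB2 higher at 0.60, a call that was lost with median ratio scaling. Basal markers were called in 2 of 4 tested genes. KRT17, a basal keratin of stressed epithelium, rose from 1.93 to 2.23 TPM to 17.0 and 17.0 TPM (2.55, adjusted P 0.0047 by limma), and the desmosomal cadherin DSC3 was at 0.69, a call also lost with median ratio scaling. Among targets of p63, for which no count is given, PERP, a desmosomal protein, rose to 52.9 to 55.8 TPM from 24.2 to 24.5 TPM (1.13). The integrin ITGB4 was higher at 0.77, while TP63 itself was near 0. Other reported targets went both ways, and LAMB3 and SFN were tested and not called. LAMB3 went from 95.8 to 97.3 TPM in the controls to 114 to 120 TPM. SFN went from 110 to 116 TPM to 94.1 to 98.9 TPM. COL17A1 and JAG2 were also lower by TPM, but were too low in these libraries to be tested.

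No epithelial junction gene of 3 tested was called by limma. EPCAM and CLDN4 fell short of the filter and were not tested. EPCAM had 0.821 and 1.23 TPM in the controls and 0.0904 and 0.148 TPM under the knockout label. CLDN4 went the other way, from 0.419 and 0.597 TPM to 0.708 and 1.09 TPM. The 3 tested genes, the tight junction proteins CGN and MARVELD2 and the splicing factor ESRP2, were at -0.48, -0.40 and -0.47. All 3 had an unadjusted P below 0.05 (limma), as 30.1% of genes had. Mesenchymal genes were called in 3 of 6 tested, all higher, beside 8.61% of all genes, with VIM at 0.76, ZEB2 at 1.06 and ZEB1 at 0.59. The call of ZEB1, a repressor of CDH1, was lost with median ratio scaling.

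The next question was whether the factors differed in the 6 libraries labelled overexpression as one group. By TPM, the 2 libraries of line label 79 had U11 within the range of the controls, and those of line labels 86 and 87 had U11 above it. None of the 4 factors tested was called, beside 1.93% of 15768 genes tested, and none had an unadjusted P under 0.05 by limma, which 6.0% of genes had. GATA3 had the lowest estimate, -0.51 on the log2 scale (95% interval -1.23 to 0.21, adjusted P 0.898 by limma). FOXA1 was at 0.20 (-0.31 to 0.71), KLF5 at 0.21 (-0.12 to 0.54) and PPARG at 0.15 (-0.07 to 0.38). The intervals of FOXA1 and GATA3 reach past the fold change threshold, so these 8 libraries do not show that the factors were unaltered. With the library batch as a block, none was called either. Of the genes around them, ACSL5 and KRT17 were called, both lower, with adjusted P of 0.831 and 0.7 (limma). ACSL5 lost its call with the library batch block and with each line label averaged, and KRT17 without either control.

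The line labels were then compared with each other. An F test among line labels 79, 86 and 87, in which the controls take no part, was past an adjusted P of 0.05 in 16% of genes tested (limma). It was past that threshold for GATA3 (0.0135), KLF5 (0.0143) and FOXA1 (0.0447) and not for PPARG (0.239). FOXA1 lost this call in 9 of 16 alternatives.

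GATA3 was down-regulated in line label 87. It had 6.78 and 6.31 TPM there, beside 17.4 and 13.6 TPM in the controls, 14.9 and 12.4 TPM in line label 79, and 11.9 and 14.0 TPM in line label 86. Both libraries of line label 87 lay below all 6 others, and the share of all genes separated in this way was not computed. The log2 fold change to control was -1.12 (SE 0.15, adjusted P 0.0158 by limma), and the fall was present in both library batches, from 17.4 to 6.78 TPM in the first and from 13.6 to 6.31 TPM in the second. GATA3 was the only factor of the 4 called in line label 87, where 5.13% of genes were called, 3.05% lower, and 17.8% had an unadjusted P below 0.05 (limma), as GATA3 and FOXA1 did. It was also lower in line label 87 than in line label 79, by a log2 difference of -0.95 (adjusted P 0.0122 by limma), and than in line label 86, by -0.88 (adjusted P 0.0233 by limma). These 2 contrasts called 8.7% and 6.46% of genes, and that of line labels 86 and 79, in which no factor was called, 9.8%. Line label 87 was the one with the highest U11 level and line label 86 the next, and GATA3 in line label 86 was at -0.24 on the log2 scale against control (95% interval -0.60 to 0.13).

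FOXA1 was highest in the same libraries. It had 50.9 and 48.7 TPM in line label 87, 43.97 and 42.4 TPM in line label 79, 36.0 and 25.9 TPM in line label 86, and 34.4 and 35.9 TPM in the controls. Line label 87 stood above its control in both library batches, and line label 86 stood above its control in the first and below it in the second. Line label 87 exceeded line label 86 by 0.69 on the log2 scale (adjusted P 0.0437 by limma). Against control, line label 87 was at 0.49 (95% interval 0.14 to 0.84, adjusted P 0.138 by limma), under the fold change threshold. The libraries of line label 86 differed from each other more than those of any other group, and the lower one had a FOXA1 coverage of 38.9 aligned bases per position beside 103 in the other. Without that lower library, FOXA1 in line label 86 was at 0.034 against control and the F test of FOXA1 lost its call. FOXA1 exceeded GATA3 by 7.51 and 7.72 times in line label 87, and by 1.85 to 3.43 times in the other 6 libraries of the comparison. The controls of the knockout comparison, with 7.70 and 6.24 times, lay near line label 87 in this ratio.

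**Figure D4:**
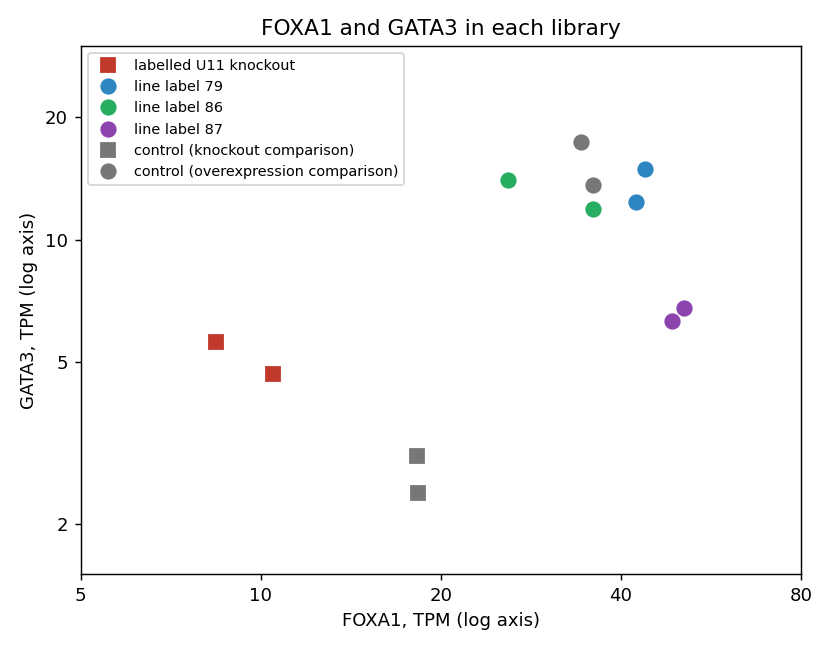
TPM of FOXA1 (x axis) against GATA3 (y axis), both on log axes, one point per library, with squares for the knockout comparison and circles for the overexpression comparison. The 2 libraries of line label 87 lie lower right of the other circles, at FOXA1 of 48.7 and 50.9 TPM, and the libraries labelled knockout lie upper left of their controls.

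KLF5 was highest in line label 86. It had 49.8 and 50.2 TPM there, beside 36.2 and 35.4 TPM in the controls, 39.9 and 39.1 TPM in line label 79, and 35.1 and 37.6 TPM in line label 87. Both values lay above all 6 others, and the share of all genes separated in this way was not computed. The log2 difference to control was 0.47 (SE 0.07, adjusted P 0.0289 by limma), which is under the fold change threshold, so KLF5 was not called. An adjusted P below 0.05 in line label 86 was reached by 1.96% of genes. It exceeded line label 79 by 0.33 (adjusted P 0.0249 by limma), and the difference of line label 87 to line label 86 was -0.45 (adjusted P 0.0155 by limma).

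PPARG did not pass the F test. It had 54.3 and 54.5 TPM in line label 86, 45.5 and 52.0 TPM in line label 79, 45.4 and 48.1 TPM in line label 87, and 45.4 and 43.99 TPM in the controls. Line label 86 was at 0.28 on the log2 scale against control (95% interval 0.08 to 0.48, adjusted P 0.214 by limma). In line label 86, 0 of the 4 factors were called and 2, KLF5 and PPARG, had an unadjusted P under 0.05 (limma), where 3.6% and 13.5% of genes did. In line label 79, 0 were called and 0 had an unadjusted P under 0.05 (limma), where 7.95% and 24.1% of genes did, and the estimates ran from -0.17 for GATA3 to 0.29 for FOXA1.

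Some of the genes around the factors were called in 1 or more line labels. FABP4 had 8.23 and 11.9 TPM in line label 86 and was called higher there (1.47, adjusted P 0.0387 by limma) beside 2.86 and 3.06 TPM in the controls. Line label 87 had 4.67 and 6.22 TPM and line label 79 had 1.21 and 2.06 TPM, called higher in the first (adjusted P 0.187 by limma) and lower in the second (adjusted P 0.177 by limma). ACSL5 was lower than control in line labels 79 and 87, at -1.63 and -0.74. ANGPTL4 was higher in line label 79, at 1.31. Of the 8 partners and targets tested, 3 were called in line label 79, 1 in line label 86 and 2 in line label 87, where 7.95%, 3.6% and 5.13% of all genes were. FABP4 lost its call in line label 79 in 7 of 16 alternatives, the library batch block, median ratio scaling and FPKM among them. In line label 87 it lost its call with FPKM and without the second library of that label. In both line labels the call was lost when either control was left out.

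KRT17 was called lower in each of the line labels. It had 39.98 and 49.2 TPM in the controls, 10.1 and 15.0 TPM in line label 79, 19.4 and 22.7 TPM in line label 86, and 2.02 and 2.93 TPM in line label 87. Its log2 fold change to control was -3.72 in line label 87 (adjusted P 0.000619 by limma), -1.77 in line label 79 and -1.05 in line label 86, the last with an adjusted P of 0.0851. The 3 comparisons share their controls. In TPM not rescaled for library composition, controls of the knockout comparison had 1.93 and 2.23 TPM, near line label 87. On the same scale the libraries labelled knockout, at 17.0 TPM, lay below the controls of the overexpression comparison. Rescaled KRT17 levels were not compared, so how much of these gaps is composition was not tested. The control pairs, which differ in composition, thus lay far apart for KRT17. The other 3 basal markers tested, CD44, EGFR and DSC3, were called in none of the line labels.

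Of 13 family members tested, ELF4 was called in line label 79 (-0.70), KLF4 in line label 86 (-0.86) and KLF2 in line label 87 (0.73), 1 of 13 in each beside 7.95%, 3.6% and 5.13% of all genes. Luminal markers were called in line label 79 for 2 of 7 tested, beside 7.95% of all genes, with ERBB3 at -1.03 and XBP1 at -0.64, and for 0 of 7 in line labels 86 and 87 by limma. The F test among line labels was past the threshold for 4 of these 7, ERBB3, KRT19, KRT8 and XBP1, beside 16% of all genes. Of the p63 targets, LAMB3 was called in line label 79 (0.62), and LAMB3 and JAG2 in line label 87 (0.63 and 0.63). ITGB4, which was not called, went the other way. It had 1.52 to 1.97 TPM in the controls, 0.776 to 0.945 TPM in line label 79 and 0.865 to 0.959 TPM in line label 87.

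No epithelial junction gene of 5 tested was called in a line label by limma. An unadjusted P below 0.05 was found for ESRP2, MARVELD2 and CLDN4 in line label 79 (-0.37, -0.53 and -0.39) and for CGN, EPCAM and MARVELD2 in line label 87 (0.43, 0.50 and -0.39), as it was for 24.1% and 17.8% of all genes. Mesenchymal genes were called in 1 of 6 tested in line label 79 (SNAI1 at 1.53) and in 1 of 6 in line label 86 (ZEB1 at 0.83), beside 7.95% and 3.6% of all genes. CDH5 had 32.2 and 34.1 TPM in line label 79, beside 3.08 and 3.43 TPM in the controls (3.01, adjusted P 0.000138 by limma), and 4.17 to 5.28 TPM in the other line labels. PECAM1 was at 0.0911 and 0.104 TPM and VWF at 0.0413 and 0.0573 TPM in line label 79, and the 10 markers without CDH5 summed to 0.830 to 2.52 TPM across the 8 libraries. The part of CDH5 in the differences of line label 79 was not tested.

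Across the 8 libraries of the overexpression comparison, PPARG and KLF5 moved together (Pearson r = 0.877 of log2(TPM + 1)), while FOXA1 ran against GATA3 (-0.682) and KLF5 (-0.623). These libraries share line labels and batches, so the values are descriptions over 8 points. Among 11166 genes with a mean of 5 TPM or more, the profiles most like PPARG were SMARCC1 (0.987), CCNY (0.968) and BMPR2 (0.948). Those most like KLF5 were MARCH6 (0.993), KIAA1161 (0.986) and TAF15 (0.977). Those most like FOXA1 were PLPP2 (0.971), SH3GLB2 (0.958) and XPO5 (0.947). Those most like GATA3 were P4HB (0.973), KIF7 (0.972) and HSD17B10 (0.970). These genes were picked as the highest of 11166, so values this high do not mark a link to the factor. SMARCC1 ran only from 69.3 to 75.5 TPM.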

How the data were processed

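According to the study's methods, the authors trimmed reads by fastp, used Hisat2 for alignment against hg38 and quantified genes by Stringtie. The deposited tables list, per gene and library, a coverage signal (aligned bases averaged over positions), FPKM (fragments scaled by length and depth) and TPM. The labels give polyA RNA, while the methods describe rRNA depletion. The authors used DESeq2, which needs read counts. No counts were used here, and limma 3.58.1 in R 4.3.3 (lmFit, eBayes with a mean-variance trend) was run on log2(TPM + 1), fold changes included, for genes reaching 1 TPM in 2 of the libraries compared or more. The pseudocount of 1 understates changes of low genes.

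The knockout comparison was fitted on 4 libraries and the overexpression comparison on 8. Line labels were compared in a fit of 4 groups over the same 8 libraries. Groups came from the treatment label, line labels and library batches from the titles. Benjamini-Hochberg adjustment ran over all genes tested. The 10 urothelial genes and the 8 other gene lists were chosen with earlier results of these data known. Of the p63 targets, 2 genes are not reported here, so no count is given for that list. From each list, the text names the called genes and some with the highest control TPM. The 3 profiles most like each factor were taken by Pearson r. CpG ratios came from RefSeq promoter windows. The ratio of coverage to FPKM, at its most frequent value, gave 9.00 to 15.2 gigabases of aligned sequence per library. TPM carries no counting error, so precision rests on the spread between libraries. On simulated data with 200 genes changed, 200 were recovered in the knockout comparison (14267 genes tested, 0 false calls), 200 in the overexpression comparison (15492 genes tested, 7 false calls) and 199 for line label 87 (15278 genes tested, 0 false calls). All genes were given the same independent noise, and changed genes a log2 change of 1 and a mean of 5 TPM or more. No line, batch or gene-specific spread was simulated, so recovery checks the fit and not its power in these data. Python 3.11.15, pandas 2.3.3, numpy 2.4.6 and matplotlib 3.10.9 were used.

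Alternatives were a pseudocount of 0.1, FPKM, median ratio scaling, no filter, 1 TPM in every library, no trend, adjusted P, a replicate block, a library batch block, averaging each line label, and leaving out each library. Rescaling non-histone protein-coding genes to one total was added after seeing the data.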

Additional observations from a re-analysis of the deposited data

Results flagged for a closer look

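Among the 6 overexpression libraries, UPK1B was above 0 in 1 library, the first of line label 79 (0.0305 TPM), so that its gap to the others equals the whole range (a ratio of 1.0). UPK2 was farthest in the first library of line label 87, at 0.437 TPM beside 0.174 TPM in the other library of that label, with a gap of 0.7696 of the range. With 5 of 6 libraries at 0, any value above 0 gives UPK1B this ratio, so it says nothing beyond that value. For UPK2, chance flags about 1 in 20 groups, and both genes lie under 1 TPM.

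The F test among the line labels (limma, adjusted P over all genes tested) was past 0.05 in 16% of genes. It separated 3 of the 4 urothelial factors tested, with 0.01347 for GATA3, 0.01425 for KLF5 and 0.04471 for FOXA1. Of 13 family members tested it separated 3, ELF4 (0.002764), GATA6 (0.04022) and KLF4 (0.04457). Of 8 PPAR partners and targets it separated 5, ACSL5 (0.003098), FABP4 (0.00572), ANGPTL4 (0.006024), PLIN2 (0.01902) and CPT1A (0.0428). Of 7 luminal markers it separated 4, ERBB3 (0.006254), XBP1 (0.008791), KRT19 (0.01013) and KRT8 (0.04736), and of 4 basal markers 2, KRT17 (0.001976) and DSC3 (0.02162). It separated 0 of 5 epithelial junction genes (limma), of which MARVELD2 and CLDN4 had an unadjusted P below 0.05. It also separated 2 of 6 mesenchymal genes, SNAI1 (0.004009) and ZEB1 (0.01354), and the endothelial cadherin CDH5 (0.0002043). The meaning of the line labels is not given in the sources used here.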

How the results depend on the processing

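With 2 libraries per group and 3 library batches, each value rests on few libraries. In the knockout comparison, FOXA1 and GATA3 were called in all 12 alternatives fitted, including the replicate block, which left the count of called factors at 2, with adjusted P of 0.0927 for FOXA1 and 0.147 for GATA3 (limma). The range of adjusted P was 0.0254 to 0.174 for FOXA1 and 0.0336 to 0.243 for GATA3 (limma). With an adjusted P under 0.05 required, 1 factor, FOXA1, was called in place of 2. GATA3 in line label 87 was called in all 16 alternatives, and its adjusted P rose above 0.05 without control P3 (0.0775) and without either library of that label (0.0891 and 0.1, limma). Of the factors differing among line labels, 3 in the full data, 1 to 2 remained when a library was left out. FOXA1 lost its F test call in 9 of 16 alternatives, no filter and no trend among them, and 1 factor was left without either library of line label 87 (KLF5) or without the second library of line label 86 (GATA3). Leaving out each library in turn moved FOXA1 in line label 86 from -0.42 to 0.034 and KLF5 in line label 87 from -0.027 to 0.068 on the log2 scale, the only 2 of 308 alternative values that changed sign, both far from the thresholds. In the overexpression comparison and in line labels 79 and 86, no factor was called by limma in any alternative. Genes under 1 TPM lay near the floor of these libraries, and the part of depth in this was not tested. Replicate numbers in the knockout comparison were not treated as pairs, since deviations of same-numbered libraries correlated at 0.02 over 14356 genes. Over all genes of that comparison, the study thresholds with an adjusted P gave 984 calls, and 147 with the replicate block, 26 with no filter, 1712 without the second control, and 2 and 0 without the first and the second knockout-labelled library (limma), beside 1385 and 1844 at the unadjusted P. FPKM lowered the calls at the study thresholds from 304 to 154 in the overexpression comparison, from 1254 to 749 in line label 79, from 568 to 298 in line label 86 and from 809 to 411 in line label 87. Of the other genes, KRT17 in the overexpression comparison lost its call without either control, and ACSL5 there lost it in 11 of 17 alternatives. LAMB3 lost its call without the first library of line label 79 or 87, and JAG2 without either library of line label 87 or control 4. In the knockout comparison, ERBB2 and ZEB1 lost theirs without the first control, and ZEB1 also without the first knockout-labelled library.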
